A study of Drosophila melanogaster with 12 samples.

Results

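The genes described here encode the juvenile hormone breakdown enzymes of Drosophila melanogaster. They are the esterase gene Jhe, its tandem neighbour Jhedup and the epoxide hydrolase genes Jheh1, Jheh2 and Jheh3. The 5 genes were named by symbol and found through their FlyBase identifiers among 13919 genes in the files, and all 5 were among the 9302 genes with enough counts to be tested. Jhe was chosen by its measured level in these same libraries, where it had been seen mainly with a SU26 genome, so its levels are a description and carry no test. The other 4 were listed for their function and were tested, although the list as a whole was drawn up with results of these data known.

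Juvenile hormone is a lipid-like hormone that the corpora allata, a pair of glands near the brain, release into the insect blood, where it governs metamorphosis and, in adult females, egg production. Cells remove it along a pair of routes. Esterases cut its methyl ester to give the hormone acid, and membrane-bound epoxide hydrolases open its epoxide ring to give the diol. Malpighian tubules are the excretory organ of insects and are rich in enzymes that break down hormones and foreign compounds.

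RNA was sequenced from tubules of adult females aged 6 days, kept at 20 °C under a daily 14 h light period and a 10 h dark period. The groups were the F1 hybrids SU58xZI418N, SU26xZI418N and SU26xSU58 and the parental lines ZI418N from Zambia and SU58 and SU26 from Sweden, with no treatment in any of them. Each genotype had 2 biological replicates, and every mean ± SD below is over these (n = 2). Zambia is represented by 1 line and Sweden by 2. The labels do not say which parent was the mother of a hybrid or how many flies gave a library. Total gene counts ranged from 30834175 to 43479929 per library.

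The tubule markers were present in every library. The V-ATPase genes Vha55, Vha68-2 and Vha26 summed to between 9160 and 11200 CPM, a level relative to the scaled total count of a library, and Uro, the urate oxidase gene of principal cells, ranged from 1370 to 4200 CPM. Markers of the female germ line and eggshell stood apart in SU26xZI418N replicate 2 (a sum of 559 CPM over 9 genes) and SU58 replicate 1 (252 CPM), against 1.64 to 25.8 CPM in the other 10 libraries. Only the former are meant below by both libraries with germ line or eggshell transcripts. The libraries kept in that check were not free of them, with 25.8 CPM in SU58xZI418N replicate 2 and 23.2 CPM in SU26 replicate 1. The corpora allata gene jhamt, which encodes the last methylating enzyme of juvenile hormone synthesis, was at most 0.165 CPM in any library. In tissue RNA, fewer cells of a type and less RNA per cell cannot be told apart.

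Jhe and Jhedup lie side by side on chromosome arm 2R, and both are transcribed from the plus strand. By Ensembl's BDGP6 annotation, whose build may differ from that of the authors, Jhedup (FBgn0034076) spans 16117109 to 16119149 and Jhe (FBgn0010052) spans 16119793 to 16122773, with 643 bases between them. Jheh1 (FBgn0010053, 18853434 to 18855087), Jheh2 (FBgn0034405, 18855767 to 18858245) and Jheh3 (FBgn0034406, 18860375 to 18862078) follow each other on the minus strand of the same arm, 2730660 bases away. No exon of Jhe or Jhedup shares bases with another gene. An annotated antisense RNA on the plus strand covers all 1486 exon bases of Jheh1, 1765 of the 1926 of Jheh2 and 780 of the 1576 of Jheh3. That RNA was not analysed here, and whether counting used strand is not given in the sources used here, so reads of the hydrolase genes and of their antisense partner cannot be told apart. How reads shared between duplicated genes were counted is likewise not given.

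Per kilobase of gene, the hydrolases were by far the more abundant transcripts. Jheh1 averaged 82.6, Jheh2 79.1 and Jheh3 48.3 CPM per kb over the 12 libraries, against 3.26 CPM per kb for Jhe and 0.866 CPM per kb for Jhedup. In every library each hydrolase gene stood above at least 79.5% of the tested genes on this scale. Jhe stood above 59.4% and 63.8% of them in the SU26 libraries and above at most 7.27% in the 6 libraries without a SU26 genome. The hydrolases together exceeded the esterases 10.7-fold and 13.8-fold in the SU26 libraries, against 362-fold to 1000-fold in those of SU58, ZI418N and SU58xZI418N.

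Jhe encodes the juvenile hormone esterase itself. It was detected at low levels in SU58xZI418N, with 7 and 1 counts (0.178 and 0.0236 CPM). It stood at 6.96 and 5.55 CPM in SU26xZI418N and at 9.39 and 8.13 CPM in SU26xSU58. Among the parents it stood at 0.199 and 0.138 CPM in ZI418N and at 0.215 and 0.254 CPM in SU58, all from 5 to 8 counts per library, and at 21.5 and 26.8 CPM in SU26. The libraries thus fell into levels by the number of SU26 genome copies, with at most 0.254 CPM at 0 copies, from 5.55 to 9.39 CPM at 1 copy and at least 21.5 CPM at 2 copies, and no overlap between these levels. Within the groups at 0 copies, ZI418N and SU58xZI418N overlapped.

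The hybrids with 1 SU26 genome did not reach the average of their parents in CPM. SU26xZI418N averaged 6.26 ± 0.995 CPM, which is 51.4% of the parents' mean of 12.2 CPM (0.169 ± 0.0425 CPM in ZI418N and 24.1 ± 3.77 CPM in SU26). SU26xSU58 averaged 8.76 ± 0.89 CPM, or 71.9% of a parents' mean that was also 12.2 CPM (0.235 ± 0.0277 CPM in SU58). Single libraries ranged from 45.7% to 57.2% in SU26xZI418N and from 66.7% to 77.0% in SU26xSU58, so that all 4 lay below the parents' mean and the hybrids did not overlap each other. Both hybrids lay above the geometric mean of their parents, which was 2.02 CPM for SU26xZI418N and 2.38 CPM for SU26xSU58. No test was made of these Jhe values, since the gene was chosen for this pattern.

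Jhedup arose as a duplicate of Jhe, and its product has been described as an odorant-degrading esterase of the antenna. It was counted 15 and 16 times in SU58xZI418N (0.381 and 0.377 CPM), and stood at 1.05 and 1.17 CPM in SU26xZI418N and at 2.45 and 2.69 CPM in SU26xSU58. The parental libraries had 0.426 and 0.138 CPM in ZI418N, 0.43 and 0.604 CPM in SU58 and 4.79 and 3.77 CPM in SU26. The order of the groups matched that of Jhe among the genotypes with a SU26 genome, and the 3 levels of SU26 copies did not overlap. The share of all tested genes with the same separation was not determined, and Jhe ranked 18 among 9301 genes by likeness to Jhedup. SU58xZI418N and ZI418N overlapped at the low end.

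**Figure D1:**
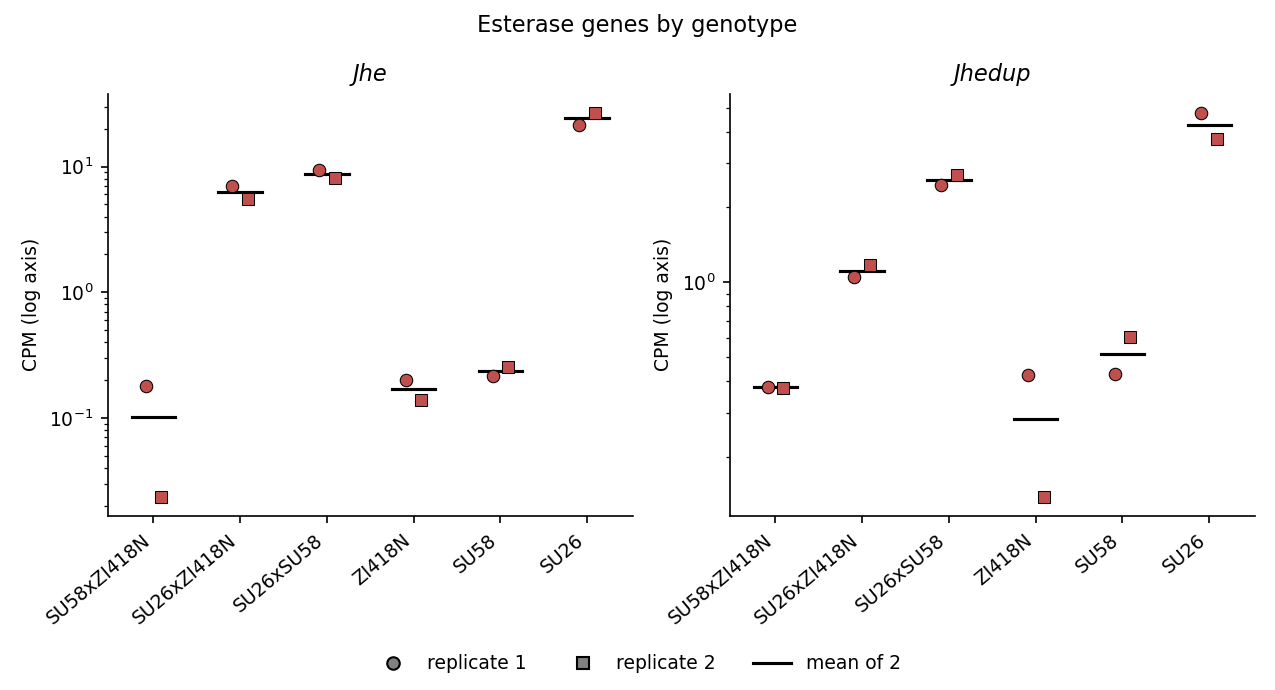
CPM of Jhe (left) and Jhedup (right) on log axes for each genotype, with circles for replicate 1, squares for replicate 2 and bars for the mean of both. SU26 libraries are highest (21.5 and 26.8 CPM for Jhe), hybrids with 1 SU26 genome are intermediate, and ZI418N, SU58 and SU58xZI418N stay at or below 0.254 CPM for Jhe and 0.604 CPM for Jhedup.

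Jhedup fell outside SU26. It was 8.26-fold lower in SU58 than in SU26 (log2 fold change -3.05 ± 0.44, approximate SE, adjusted p = 0.00221). In ZI418N it was 15-fold lower than in SU26 (log2 fold change -3.91 ± 0.46, adjusted p = 0.000471). These p-values, and all adjusted ones below unless another tool is named, are from the quasi-likelihood test of edgeR, adjusted by the Benjamini-Hochberg method for 9302 genes, and a gene is called at an adjusted p under 0.05. Both Jhedup calls held in all 18 alternatives, with adjusted p of at most 0.0371 and 0.00582. ZI418N and SU58 were not distinguished, with a log2 fold change of -0.87 and an approximate 95% interval from -1.91 to 0.18 (adjusted p = 0.252), and without ZI418N replicate 1 this value was -1.87 and passed (adjusted p = 0.0355).

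Markers of fat body, a tissue in which Jhe is also known to be active, were examined beside these values. The 7 fat body markers summed to 458 and 511 CPM in SU26, against 173 to 312 CPM in the other 10 libraries. Npc2b, a gene of the sterol-binding NPC2 family, made up 204 and 301 CPM of the SU26 sums and was the 1 of 4 tested markers called in SU58 or ZI418N against SU26, lower in both. Of all tested genes 9.56% were lower in SU58 and 13.1% in ZI418N. Npc2b stood at 63.2 to 98.8 CPM in the 4 hybrid libraries with a SU26 genome and at 2.92 to 19.2 CPM in the 6 libraries without one. Without Npc2b the sums were 210 and 254 CPM in SU26 and overlapped the 126 to 287 CPM of the others. The markers Fbp1, Obp99b and to were at most 0.266 CPM in every library and Lsp2 ranged from 0.35 to 4.33 CPM. The 5 principal cell markers found summed to 10300 and 9670 CPM in SU26 against 3660 to 5710 CPM elsewhere. Uro and salt carried this difference, at means of 4080 and 5640 CPM in SU26, and were lower in SU58 and in ZI418N. CapaR was not called between the lines, Irk2 was higher in ZI418N (356 CPM) than in SU26 (184 CPM) and Best2 was higher in SU58 (46.0 CPM) than in SU26 (24.3 CPM). The part of either marker list in the esterase values was not tested.

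The hydrolase genes followed another order, in which SU58 was highest. Jheh1 encodes the first of the epoxide hydrolases along the chromosome. It stood at 112 and 124 CPM in SU58xZI418N, 72.8 and 63.1 CPM in SU26xZI418N and 143 and 124 CPM in SU26xSU58. The parents had 64.0 and 72.0 CPM in ZI418N, 211 and 255 CPM in SU58 and 87.6 and 144 CPM in SU26. Both SU58 libraries exceeded all 10 others, the groups SU26xSU58, SU58xZI418N and SU26 overlapped in sequence, and the SU26xZI418N libraries lay on either side of both ZI418N libraries. How many of all tested genes were highest in both SU58 libraries was not determined.

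Jheh2, the middle gene of the cluster, encodes another epoxide hydrolase. It stood at 147 and 163 CPM in SU58xZI418N, 102 and 89.6 CPM in SU26xZI418N and 195 and 181 CPM in SU26xSU58. The parental values were 83.9 and 92.9 CPM in ZI418N, 261 and 273 CPM in SU58 and 99.1 and 140 CPM in SU26. SU58, SU26xSU58, SU58xZI418N and SU26 formed 4 descending steps without overlap, while SU26xZI418N overlapped both SU26 and ZI418N. The share of all tested genes with such steps was not determined. Jheh3, the last of the hydrolase genes, stood at 103 and 67.9 CPM in SU58xZI418N, 51.0 and 44.1 CPM in SU26xZI418N and 88.4 and 87.2 CPM in SU26xSU58. Its parental values were 57.6 and 67.1 CPM in ZI418N, 117 and 111 CPM in SU58 and 50.9 and 68.0 CPM in SU26. SU58 was again above all others, SU58xZI418N spread widely between its replicates, and ZI418N and SU26 overlapped.

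**Figure D2:**
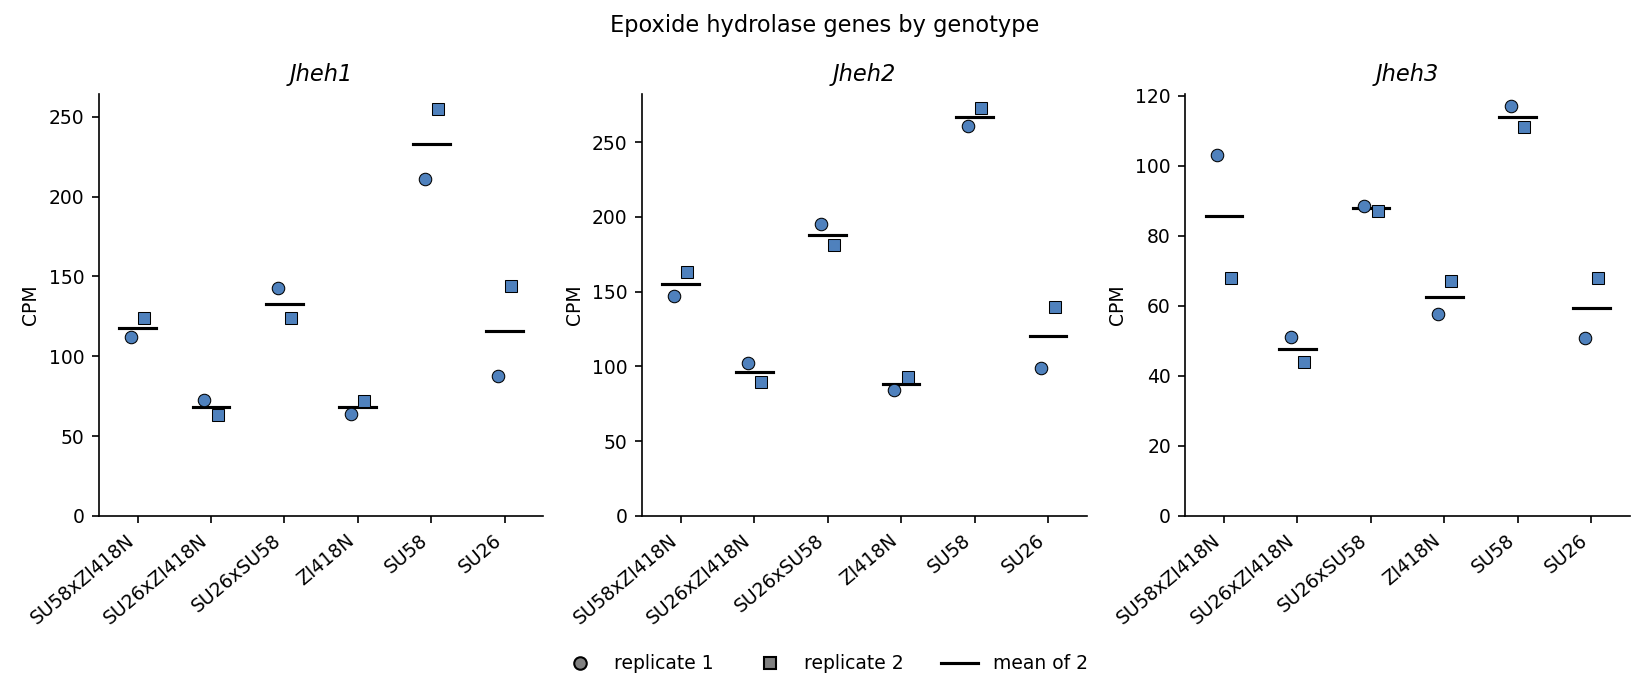
CPM of Jheh1, Jheh2 and Jheh3 for each genotype on linear axes that start at 0, with circles for replicate 1, squares for replicate 2 and bars for the mean of both. SU58 is highest in each panel (means of 233, 267 and 114 CPM), and the hybrids of SU58 lie below it.

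Between the Swedish lines, SU58 and SU26, Jhedup and the hydrolases differed in opposite directions. All 4 tested members were called, against 17.6% of all tested genes. Jhedup was lower in SU58, as were 9.56% of all genes. All 3 hydrolases were higher in SU58, against 8.06% of all genes, with a median log2 fold change of 1.01 beside 0.01 over all genes. In SU58 Jheh2 averaged 267 ± 8.49 CPM, against 120 ± 28.8 CPM for SU26, which is 2.23-fold higher (log2 fold change 1.16 ± 0.15, adjusted p = 0.00146) and held in all 18 alternatives. Jheh1 was 2.02-fold higher (adjusted p = 0.0123) and lost its call without SU58 replicate 2 (0.0905). Jheh3 was 1.92-fold higher (adjusted p = 0.0129) and lost its call without SU58 replicate 1 (0.0911), SU58 replicate 2 (0.0605) or SU26 replicate 1 (0.0753). It also lost it, at an adjusted p of 0.0891, when both libraries with germ line or eggshell transcripts were left out.

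ZI418N against SU26 gave 2 called members, Jhedup and Jheh1, both lower in ZI418N, where 24% of all genes were called and 13.1% were lower. Jheh1 averaged 68.0 ± 5.61 CPM in ZI418N and 116 ± 39.7 CPM in SU26. The log2 fold change was -0.77 ± 0.21, at an adjusted p of 0.028. This call was lost without ZI418N replicate 1 or 2, where the log2 fold change stayed at -0.68 and -0.87. Without SU26 replicate 2 the call was lost as well, and there the log2 fold change shrank to -0.36. The call was also lost when only these genotypes were fitted (adjusted p = 0.0736). Jheh2 had a log2 fold change of -0.44 (adjusted p = 0.0677), which passed with DESeq2 (0.0275) and without SU26 replicate 1 (0.00937). Jheh3 had a log2 fold change of 0.07 with a 95% interval from -0.38 to 0.52 (adjusted p = 0.833).

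ZI418N against SU58 showed the largest differences of Jheh1 and Jheh2 among the 9 comparisons. All 3 hydrolases were lower in ZI418N, against 16.9% of all genes called in either direction and 9.33% lower, with a median log2 fold change of -1.59 beside 0.01 over all genes. Jheh1 was 3.43-fold lower (68.0 ± 5.61 CPM in ZI418N and 233 ± 31.3 CPM in SU58, log2 fold change -1.78 ± 0.21, adjusted p = 0.00063). Jheh2 was 3.02-fold lower (88.4 ± 6.33 CPM in ZI418N and 267 ± 8.49 CPM in SU58, log2 fold change -1.59 ± 0.15, adjusted p = 0.000176). Both held in all 18 alternatives. Jheh3 was 1.83-fold lower (62.4 ± 6.74 CPM in ZI418N and 114 ± 4.62 CPM in SU58, adjusted p = 0.0168), and this call was lost without ZI418N replicate 1 (0.12) or 2 (0.0593) and without SU58 replicate 1 (0.1) or 2 (0.073). It was also lost when both libraries with germ line or eggshell transcripts were left out (0.0948). Markers of stellate cells, the chloride- and water-transporting cells of the tubule, were higher in sum with a Zambian genome, though not each of them was. The 6 markers summed to 1460 and 1370 CPM in ZI418N, 1030 to 1350 CPM in its hybrids and 877 to 1020 CPM in the other 6 libraries. In ZI418N 2 of 6 were higher than in SU58 (Prip and Drip) and 4 of 6 higher than in SU26 (Prip, Drip, ClC-a and Lkr). Of all tested genes 16.9% and 24% were called in either direction in these comparisons, of which the genes lower in ZI418N made up 9.33% and 13.1% of all tested. SecCl (199 CPM in ZI418N and 197 CPM in SU26) and tsh (58.3 and 50.6 CPM) were called in neither. The part of the stellate cell markers in the hydrolase values was not tested. The 3 comparisons of lines share libraries with each other.

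**Figure D3:**
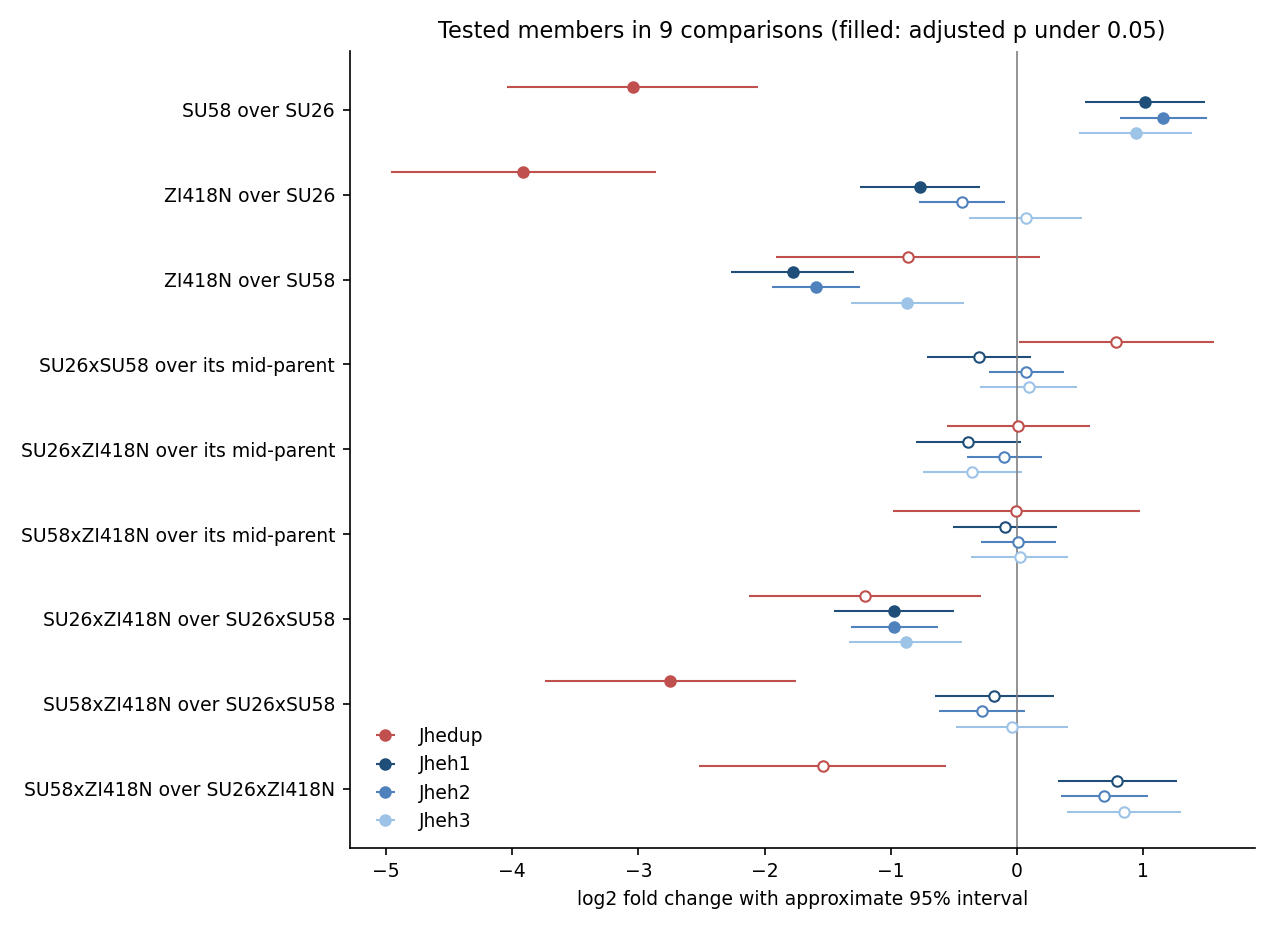
Log2 fold changes of Jhedup, Jheh1, Jheh2 and Jheh3 (x axis) in 9 comparisons (rows) with approximate 95% intervals, filled where the adjusted p was under 0.05. Jhedup lies left of 0 in both comparisons with SU26 (-3.05 and -3.91), and the hydrolases lie right of 0 for SU58 over SU26 and left of 0 for ZI418N over SU58.

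The hybrids were next set against the mean of their parents on the log2 scale, where a difference of 0 means a level midway between them. No tested member was called in any hybrid by edgeR or DESeq2, where edgeR called 0.387% of all genes in SU58xZI418N, 5% in SU26xZI418N and 0.108% in SU26xSU58. At an unadjusted p under 0.05 the counts were 0, 0 and 1 of 4 members in that order. The 1 was Jhedup in SU26xSU58, at a log2 difference of 0.78 with a 95% interval from 0.01 to 1.56 (adjusted p = 0.813). Jheh2 was the most tightly bounded, with intervals of the log2 difference from -0.29 to 0.31 in SU58xZI418N, from -0.40 to 0.20 in SU26xZI418N and from -0.22 to 0.37 in SU26xSU58. Jheh1 lay below the midpoint in all 6 hybrid libraries, by log2 differences of -0.09 ± 0.18 in SU58xZI418N, -0.38 ± 0.18 in SU26xZI418N and -0.30 ± 0.18 in SU26xSU58, none of which passed (adjusted p = 1, 0.205 and 0.938).

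**Figure D4:**
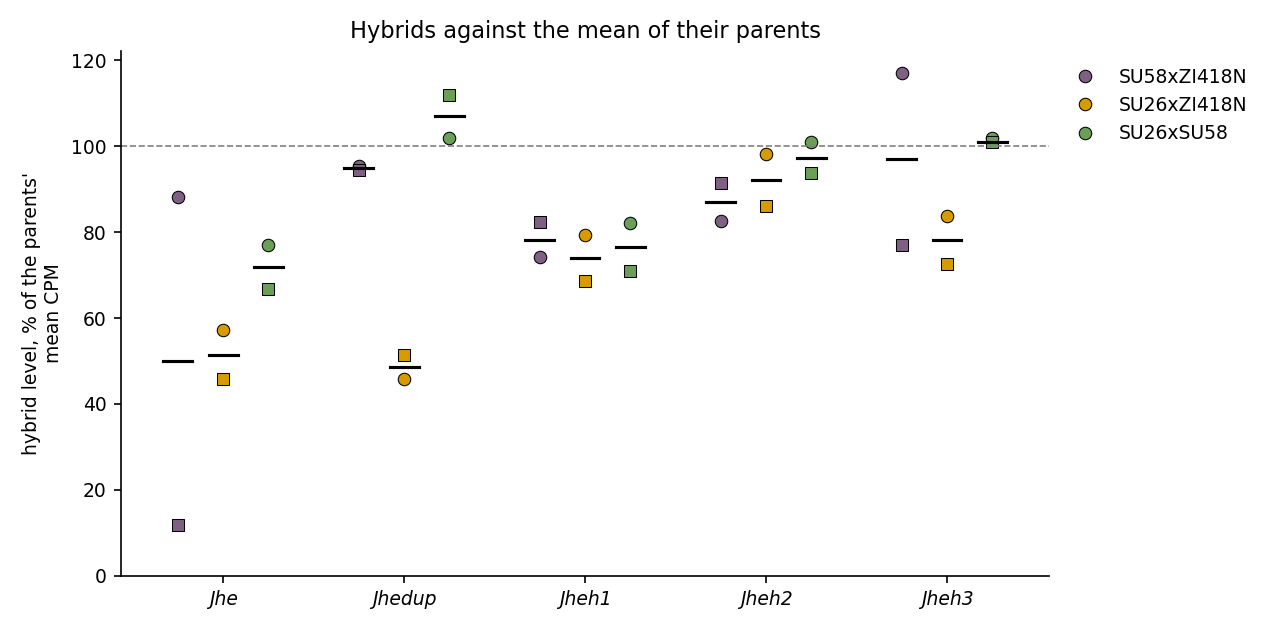
Level of each hybrid as a percentage of the mean CPM of its parents, with circles for replicate 1, squares for replicate 2, bars for the mean and a dashed line at 100%. Jhe lies below the line in each hybrid (71.9% in SU26xSU58 and 51.4% in SU26xZI418N, and in SU58xZI418N from only 8 counts), whereas Jhedup lies at 107% in SU26xSU58 and 48.6% in SU26xZI418N.

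On the CPM scale Jhedup reached 107% of the parents' mean in SU26xSU58 (2.57 ± 0.169 CPM, against a parents' mean of 2.4 CPM) and 48.6% in SU26xZI418N (1.11 ± 0.0865 CPM, against 2.28 CPM). Jheh1 came to 78.3% in SU58xZI418N, 74.0% in SU26xZI418N and 76.5% in SU26xSU58. Jheh3 in SU26xZI418N was at 78.1% of the parents' mean, and both its libraries (51.0 and 44.1 CPM) lay below the means of both parents, 62.4 CPM in ZI418N and 59.4 CPM in SU26. One of them overlapped the SU26 libraries, and the departure did not pass the test (log2 difference -0.36 ± 0.17, adjusted p = 0.213).

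Hybrids that share a parent differ by 1 genome. SU26xZI418N against SU26xSU58 exchanges a SU58 genome for a Zambian one, and all 3 hydrolases were lower in SU26xZI418N, against 4.73% of all genes called and 3.01% lower. Jheh2 was 1.96-fold lower (95.9 ± 8.91 CPM in SU26xZI418N and 188 ± 9.68 CPM in SU26xSU58, adjusted p = 0.00843), Jheh1 also 1.96-fold (adjusted p = 0.0346) and Jheh3 1.84-fold (adjusted p = 0.0396). The libraries of these hybrids did not overlap for any hydrolase. For this and the other statements on overlap, the share of all genes without overlap was not determined. All 3 were lost when only these genotypes were fitted (adjusted p = 0.0878 to 0.0995), without SU26xZI418N replicate 2 (0.065 to 0.207) and without SU26xSU58 replicate 1 (0.0529 to 0.145). Without both libraries with germ line or eggshell transcripts the adjusted p was 0.125 for Jheh2, 0.245 for Jheh1 and 0.303 for Jheh3, with log2 fold changes from -0.88 to -0.78. Jheh1 and Jheh3 also lost their calls without SU26xSU58 replicate 2 (0.0995 and 0.157) and without any 1 library of ZI418N or SU58 (0.0575 to 0.0808), and Jheh1 without either library of SU58xZI418N (0.0583 and 0.059). Jheh3 was lost with a block for the replicate number (0.0587). Jhedup was 2.31-fold lower and not called (adjusted p = 0.11; 0.0435 with DESeq2).

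SU58xZI418N against SU26xSU58 exchanges a SU26 genome for a Zambian one. Jhedup was the 1 called member, 6.71-fold lower in SU58xZI418N, as were 1.27% of all genes (0.379 ± 0.00276 CPM, against 2.57 ± 0.169 CPM in SU26xSU58, log2 fold change -2.75 ± 0.44, adjusted p = 0.0119), where 2.89% of all genes were called. The call was lost without SU58xZI418N replicate 1 (0.108) or 2 (0.107) and without SU26xSU58 replicate 1 (0.0506) or 2 (0.0656), with log2 fold changes from -2.81 to -2.68. The hydrolases had log2 fold changes from -0.28 to -0.04 and none was called. Jheh2, at -0.28, had a 95% interval from -0.62 to 0.06.

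SU58xZI418N against SU26xZI418N exchanges SU26 for SU58. edgeR called none of the 4 members and 2.06% of all genes. All 4 were at an unadjusted p under 0.05, and DESeq2 called all 4 (adjusted p = 0.00134 to 0.0312). Jhedup was 2.91-fold lower in SU58xZI418N (adjusted p = 0.127 in edgeR). Jheh1, Jheh2 and Jheh3 were 1.74-fold, 1.61-fold and 1.8-fold higher (adjusted p = 0.108, 0.0596 and 0.0734), with both SU58xZI418N libraries above both SU26xZI418N libraries for each gene. How many of all tested genes showed the same separation was not determined. Leaving out single libraries brought at most 2 of the 4 members past the threshold. Jheh2 passed without SU26xZI418N replicate 1 (0.0254) and without SU26 replicate 1 or 2 (0.02 in both), Jheh3 without SU58xZI418N replicate 2 (0.0407) or SU26xZI418N replicate 1 (0.0373), Jheh1 without SU26 replicate 1 (0.0297) or 2 (0.03), and Jhedup without ZI418N replicate 1 (0.0489) or 2 (0.0486). The pairs of hybrids share libraries with each other.

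The make-up of the hydrolase transcripts also differed between genotypes. Jheh3 formed 30.1 ± 0.655% of the hydrolase CPM per kb in ZI418N, against 19.7 ± 2% in SU58 and 21.5 ± 1.64% in SU26. Jheh1 formed 34.9 ± 0.136% in ZI418N, against 42.6 ± 3.12% in SU58 and 43.4 ± 2.97% in SU26. The ZI418N libraries overlapped neither Swedish line in either share. SU26xZI418N and SU26xSU58 gave similar Jheh3 shares (24.0 ± 0.0983% and 22.9 ± 1.18%). In SU58xZI418N the Jheh3 share was 30.2% in replicate 1 and 20.4% in replicate 2. These shares were not tested.

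**Figure D5:**
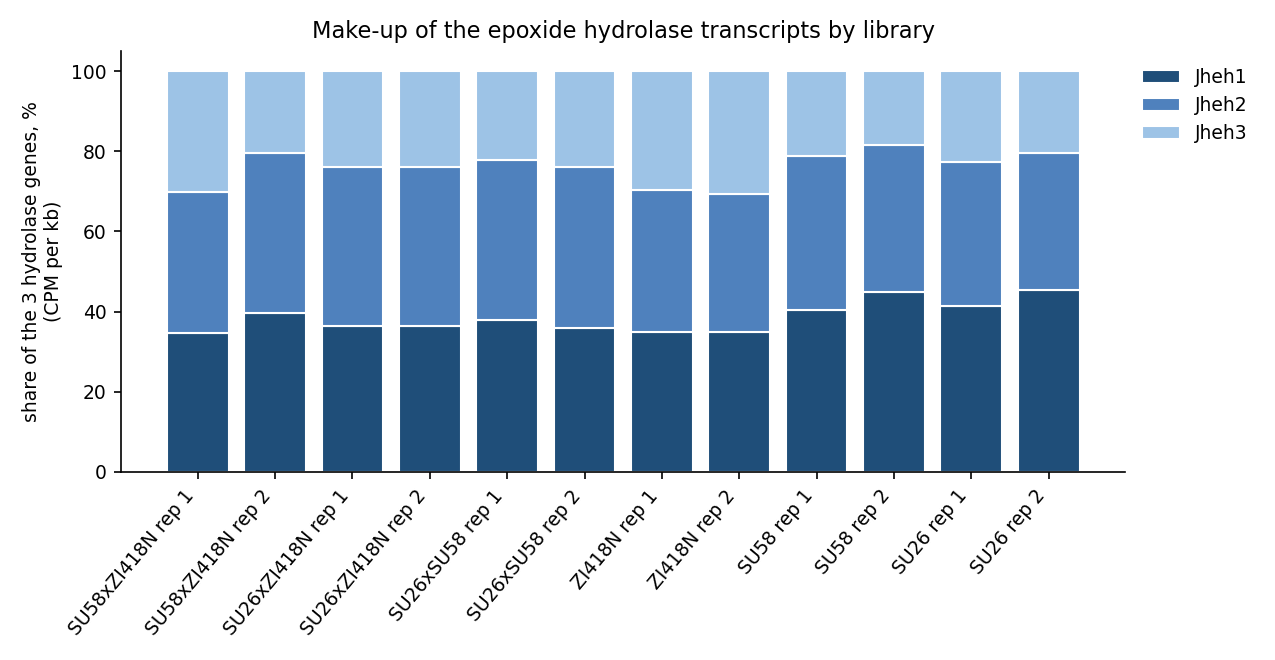
Share of Jheh1, Jheh2 and Jheh3 in the summed CPM per kb of the 3 hydrolase genes (y axis, %) for each of 12 libraries (x axis). Jheh3 takes 29.7% and 30.6% in ZI418N and between 18.3% and 22.6% in the SU58 and SU26 libraries.

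The members' patterns were also compared with those of all tested genes, as Pearson correlations of log2 CPM over the 12 libraries, which come in 6 genotypes and share their scaling, so that the values are descriptions. Jhe and Jhedup had r = 0.929, and 21 other genes were closer to Jhe. The closest to Jhe were CG6912 (r = 0.985), CG12910 (0.976), the septate junction gene Ssk (0.975), fipi (0.974) and the beta-catenin gene arm (0.973). CG12910, for example, averaged 1.52 CPM in SU58xZI418N, 31.3 CPM in SU26xZI418N, 33.2 CPM in SU26xSU58, 1.4 CPM in ZI418N, 2.01 CPM in SU58 and 46.9 CPM in SU26. Like Jhe, it had its lowest levels in the 3 genotypes without a SU26 genome, which follows from its choice by likeness to Jhe. Closest to Jhedup were arm (0.954), the carbonic anhydrase gene CAH5 (0.952), CG10939 (0.952), fipi (0.951) and CG9497 (0.948).

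Jheh2 was the second closest of 9301 genes to Jheh1 (r = 0.966), after CG42296 (0.969), and CG7420, CG30108 and CG31021 followed. The closest genes to Jheh2 were Ect3 (0.981), CG17036 (0.979), CG16935 (0.975), smal (0.974) and CG30049 (0.972). Jheh3 was less like its neighbours (r = 0.841 with Jheh1 and 0.88 with Jheh2), and closest to it were CG17110 (0.956), CG6901 (0.947), Cow (0.946), the chitinase gene Cht5 (0.945) and PH4alphaEFB (0.939). Between an esterase and a hydrolase gene r lay between -0.394 and 0.071.

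Genes next to the members were examined in the same way. Beside Jhe and Jhedup, Asph averaged 106 CPM in SU26, against 107 CPM in ZI418N and 75.2 CPM in SU58, and spin, a lysosomal transporter gene, averaged 79.6 CPM in SU26, against 52.3 CPM in ZI418N and 33.3 CPM in SU58. Both were lower in SU58 than in SU26 (adjusted p = 0.0242 and 0.015), calls that each ended in 4 of 18 alternatives (adjusted p up to 0.172 and 0.13), and neither was called in ZI418N against SU26. Ric was called in none of the 9 comparisons and CG30095 had no counts. Beside the hydrolases, CG15084 ranged from 2.42 to 3.71 CPM and was called in none, CG43069 and CG43070 were at most 0.0991 CPM, and CG18190 was above 1 CPM only in SU26xZI418N replicate 2, at 17.8 CPM.

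Other genes of the hormone's pathway were read from lists. Among genes of synthesis, Cyp6g2, a P450 gene linked to hormone synthesis in the corpora allata, was lower in ZI418N than in SU58, with 4.47 CPM in ZI418N and 48.6 CPM in SU58 (log2 fold change -3.44, adjusted p = 0.00422, at most 0.0386 over the alternatives). Cyp6g2 was also lower in SU26xZI418N than in SU26xSU58 (log2 fold change -2.44, adjusted p = 0.0492), a call lost in 12 of 18 alternatives (adjusted p up to 0.253), and higher in SU58xZI418N than in SU26xZI418N (2.96, adjusted p = 0.0378), a call lost in 11 of 18 (up to 0.292). Fpps, the farnesyl diphosphate synthase gene, was not called between the lines.

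The receptors and response genes numbered 12, all tested. In SU58 1 was higher and 1 lower than in SU26, in ZI418N 1 was higher and 1 lower than in SU26, and 2 were higher and 0 lower than in SU58, with list medians from 0.08 to 0.16 on the log2 scale beside 0.01 over all genes. Each of these comparisons thus called 2 of the 12, beside 17.6%, 24% and 16.9% of all tested genes in that order. Met, which encodes a juvenile hormone receptor, averaged 24.9 CPM in ZI418N, 24.0 CPM in SU58 and 23.1 CPM in SU26. It was called in none of the 9 comparisons. Its paralogue and fellow receptor gce was called once, higher in SU58 than in SU26 (90.9 and 72.4 CPM, adjusted p = 0.0368, lost in 10 of 18 alternatives). Kr-h1, the transcription factor gene that the receptors switch on, averaged 138 CPM in ZI418N, 49.2 CPM in SU58 and 121 CPM in SU26. It was called for ZI418N over SU58 (log2 fold change 1.48, adjusted p = 0.0469), a call lost in 11 of 18 alternatives. In SU26xSU58 its libraries stood at 49.0 and 164 CPM. The inducible gene JhI-26 was lower than in SU26 (543 CPM) in both SU58 (351 CPM) and ZI418N (368 CPM), calls lost in 8 and 12 of 18 alternatives, and Chd64 was called in none. The gene tai, a coactivator of the receptors named here after its values were seen, was higher in ZI418N (161 CPM) than in SU26 (110 CPM, adjusted p = 0.00245, at most 0.02 over the alternatives). It was also called over SU58 (131 CPM, adjusted p = 0.0494), a call lost in 12 of 18 alternatives, 10 of them with 1 library left out (adjusted p up to 0.302). In the 6 comparisons with hybrids edgeR called 0 of the 12, with 0 to 3 at an unadjusted p under 0.05 and 0 to 2 called by DESeq2, where edgeR called 0.108% to 5% of all genes.

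Of 21 genes of the wider carboxylesterase family, to which the esterases belong, 20 were found by name and 19 tested. In SU58 against SU26 7 were higher and 2, alpha-Est9 and Gli, lower. In ZI418N 5 were higher than in SU26 (alpha-Est1, alpha-Est6, Ace, Nlg1 and Nlg2) and 4 lower (alpha-Est3, alpha-Est7, alpha-Est9 and Nlg4). Against SU58, 1 was higher in ZI418N (Ace) and 5 were lower (alpha-Est3, alpha-Est7, Nrt, Nlg2 and Nlg4). Of all tested genes 17.6%, 24% and 16.9% were called in these comparisons, with 8.06% higher and 9.56% lower in SU58 than in SU26. In ZI418N 13.1% of all tested genes were lower than in SU26 and 9.33% lower than in SU58. The list medians were 0.43, 0.04 and -0.04 on the log2 scale in these 3 comparisons, beside 0.01 over all genes, and genes other than alpha-Est3 and alpha-Est6 are named here after their values were seen. The most abundant per kilobase were alpha-Est3, alpha-Est5 and alpha-Est6, which belong to the alpha-esterase cluster. alpha-Est6 was lowest in SU26, where Jhe and Jhedup were highest, at 65.7 CPM in SU58 and 65.8 CPM in ZI418N against a SU26 mean of 12.2 CPM (log2 fold changes 2.43 in both, adjusted p = 7.47e-06 and 5.47e-06, held in all 18 alternatives). alpha-Est3 was lower in ZI418N (235 CPM) than in SU58 (323 CPM, log2 fold change -0.46, adjusted p = 0.0151, lost in 3 of 18 alternatives), and alpha-Est5 was called in none of the 9 comparisons.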

How the data were processed

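Poly-A RNA of Malpighian tubules was sequenced in 12 libraries as paired reads of 125 bases, per the labels. Each deposited file holds raw counts and a length for every gene, per the file headers. The aligner, counter and genome build were not given in the sources used here. Identifiers gave names to 13749 genes and CG numbers to a further 146. Genes were filtered with filterByExpr and scaled with TMM, and 1 mean per genotype was fitted over all libraries (edgeR 4.0.16, R 4.3.3, 6 residual degrees of freedom). CPM uses the scaled library sizes, and CPM per kb divides it by the deposited length. The SE is the absolute log2 fold change over the square root of F, and 95% intervals derive from it. DESeq2 1.42.0 was an alternative. Correlations used a prior count of 2. Members and lists were chosen with earlier results of these data known. By rule, the text names the members, the 5 most similar genes to each, the 2 genes on each side of each cluster, the 3 most abundant genes per kilobase of each list, and Met, gce, Kr-h1 and jhamt. Npc2b and other markers come from the cell type lists. A result of the synthesis list is not reported here.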

Additional observations from a re-analysis of the deposited data

Results flagged for a closer look

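The departure of Jheh3 from the midpoint of its parents pointed in opposite directions in a pair of hybrids. In SU26xZI418N both libraries lay below it, by log2 values of -0.24 and -0.45, and in SU26xSU58 both lay above it, by 0.11 and 0.09, a difference of -0.45. By edgeR's quasi-likelihood test of the difference itself it did not pass (adjusted p = 0.442).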

How the results depend on the processing

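Over 18 alternatives for each of 4 members in 9 comparisons, 587 of 648 values stayed on their side of the threshold, 43 calls were lost and 18 were gained. No called value changed sign, and 17 values that were called neither as reported nor in the alternative did, in 8 of the member comparisons. The count of called members for ZI418N over SU26 was 1 when only the compared genotypes were fitted (2 as reported). For SU26xZI418N over SU26xSU58 (3 as reported) it was 0 in that fit and 0 without both libraries with germ line or eggshell transcripts. For SU58xZI418N over SU26xZI418N (0 as reported) it was 1 with no filter on low counts and 4 with DESeq2. With 1 library left out, counts ranged from 2 to 4 for SU58 over SU26, 1 to 3 for ZI418N over SU26, 2 to 3 for ZI418N over SU58, 0 to 3 for SU26xZI418N over SU26xSU58, 0 to 1 for SU58xZI418N over SU26xSU58 and 0 to 2 for SU58xZI418N over SU26xZI418N, and were 0 throughout against the mid-parents. The genotype with a lone library is then assumed to vary like the others, and the causes were not tested. Counts over all genes moved more. With 1 library left out they ran from 492 to 1939 for SU58 over SU26 (1639 with all), 703 to 1877 for ZI418N over SU58 (1573), 1217 to 2565 for ZI418N over SU26 (2235), 156 to 1903 for SU26xZI418N over SU26xSU58 (440), 92 to 333 for SU58xZI418N over SU26xSU58 (269) and 57 to 1537 for SU58xZI418N over SU26xZI418N (192). Against the mid-parents they ran from 25 to 1773 in SU26xZI418N (465), 13 to 44 in SU58xZI418N (36) and 4 to 20 in SU26xSU58 (10). DESeq2 called 1117, 508 and 630 genes in the 3 hybrid pairs in that order, and 1294, 85 and 69 against the mid-parents. Fitting only the compared genotypes gave 8, 108 and 7 in the hybrid pairs, 16 for SU26xZI418N against its mid-parent and 2459 for ZI418N over SU58. With no filter, 821 genes were called in SU26xZI418N and 22 in SU26xSU58 against their mid-parents. Without both libraries with germ line or eggshell transcripts the counts were 618 for SU58 over SU26, 860 for ZI418N over SU58, 118 for SU26xZI418N over SU26xSU58, 46 for SU58xZI418N over SU26xZI418N, and 14 in SU26xZI418N and 6 in SU26xSU58 against their mid-parents. Whether replicate numbers pair the libraries was not settled. Of 15 pairs of genotypes 4 had correlated deviations over 0.1, and 5 of 6 genotypes correlated best with libraries of their own number. With a replicate block, Jheh3 in SU26xZI418N over SU26xSU58 lost its call (log2 fold change -0.88, adjusted p = 0.0587), and no other member's call changed, while the count over all genes for SU26xZI418N against its mid-parent was 68. Jhe in genotypes without SU26, at 1 to 8 counts per library, is limited by counting depth. The p-values of edgeR rest on a spread between replicate libraries that was estimated jointly over all 6 genotypes, with 2 libraries in each.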
